A study of Homo sapiens with 4 samples.

Results

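The genes described here encode the subunits of the oxidative phosphorylation system that are made from nuclear DNA. They were taken from the tables by symbol, as the NDUF, SDH, UQCR, COX and ATP5 genes of complexes I to V. The symbol rule itself used no measured value, but it was chosen with earlier results of these data known. Of 53617 genes listed, 74 were members: 36 of complex I, 4 of complex II, 8 of complex III, 11 of complex IV and 15 of complex V. NDUFA4 carries a complex I name but is a subunit of complex IV and was counted there. The symbols are those of the tables, so that ATP5A1, ATP5B and the other ATP5 genes stand for the genes now named ATP5F1A, ATP5F1B and so on.

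The values came from HT29, an established line of human colon cancer cells, at passages 12 to 13. The precursor group had received a precursor of the microRNA miR-23b (given as high miR23b in the labels), the antimir group an inhibitor of it (low miR23b), and the precursor control and antimir control groups the respective control molecules. All 4 groups were transfected with Lipofectamine 2000 at the dose of 50 that the labels write as "50nm", the medium was renewed after 24 h and RNA was isolated after 48 h. For all 4 groups the labels also give 5% serum and a confluency of 90%. Each group was 1 library from 1 cell line, so no difference below has a replicate error and none was tested. The study set out to find the mRNAs that respond to the level of miR-23b.

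Oxidative phosphorylation is the machinery of the inner mitochondrial membrane that turns the energy of NADH and succinate into ATP. Complexes I and II pass electrons to ubiquinone, complex III passes them to cytochrome c, complex IV passes them to oxygen, and complexes I, III and IV pump protons, whose return flow drives complex V, the ATP synthase. Most subunits are encoded in the nucleus and imported, while a small set of core subunits of complexes I, III, IV and V is encoded by mitochondrial DNA, and complex II is wholly nuclear. The respiratory factors NRF1 and GABP, the latter of the ETS family, are known to bind promoters of many of these genes. In colon cancer cells the pathway runs beside a high rate of glycolysis.

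The labelled cell type was checked first. EPCAM, KRT8, KRT18, KRT20, CDH1, VIL1 and LGALS4, markers of colon epithelium, lay between 102 and 6800 FPKM in every library, CDX2 between 2.19 and 2.87, and CEACAM5 (0.785 to 1.78) and CDX1 (0.319 to 0.689) were low. FPKM is a read density per transcript length and library size. Of the markers of other cell types, PTPRC, CD3E, VWF, ALB and COL1A2 were at or near 0, and CD14 and CD68 were the 2 past a mean of 1 FPKM, at no more than 5.59. The summed level of the 11 such markers found was 9.55 with precursor against 7.14 and 7.96 with antimir against 6.91. All 9 epithelial markers past the filter with precursor had a centred difference above 0 (median 0.085), and 3 of 8 did with antimir. The part of either list in the results below was not tested. MIR23B, the gene of the targeted microRNA, was listed at 0 in all 4 libraries, which say nothing about the mature molecule, and its host gene C9orf3 was at 14.7 with precursor against 14.8 and at 14.1 with antimir against 13. The depth of the libraries is unknown, because FPKM keeps no read counts. In bulk RNA, fewer cells with a transcript and less RNA per cell cannot be told apart.

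The subunit genes were among the most abundant nuclear transcripts of these cells. Together they took 0.793% of the FPKM of the precursor library and 0.760% of that of its control. The shares for antimir and its control were 1.13% and 1.07%. The median subunit gene stood above 98.4% of all genes in the precursor library and above 98.5% in the antimir library. The 2 tables were normalised separately, so differences are taken within a table only, and a mean over the 4 libraries or a ratio between the tables carries that limit. Every one of the 74 genes passed the filter of a mean FPKM of at least 1 in both tables, and the lowest, NDUFV3, lay at 9.34 to 12.2.

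Levels differed more between subunits than between libraries. Over the 4 libraries, the median gene of complex I had a mean of 111 FPKM, that of complex II 164, of complex III 272, of complex IV 367 and of complex V 326. COX7C, a small subunit of cytochrome c oxidase, was at 1530, 1600, 1270 and 1200 FPKM in the order precursor, precursor control, antimir, antimir control. ATP5J2, a small membrane subunit of the synthase, was at 1470, 1570, 1450 and 1320 in the same order. These 2 genes and ATP5B headed the order in every library. NDUFV3, a small accessory subunit of the NADH-binding arm of complex I, closed it at 12.2, 10.2, 9.34 and 9.46. No protein was measured.

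**Figure D1:**
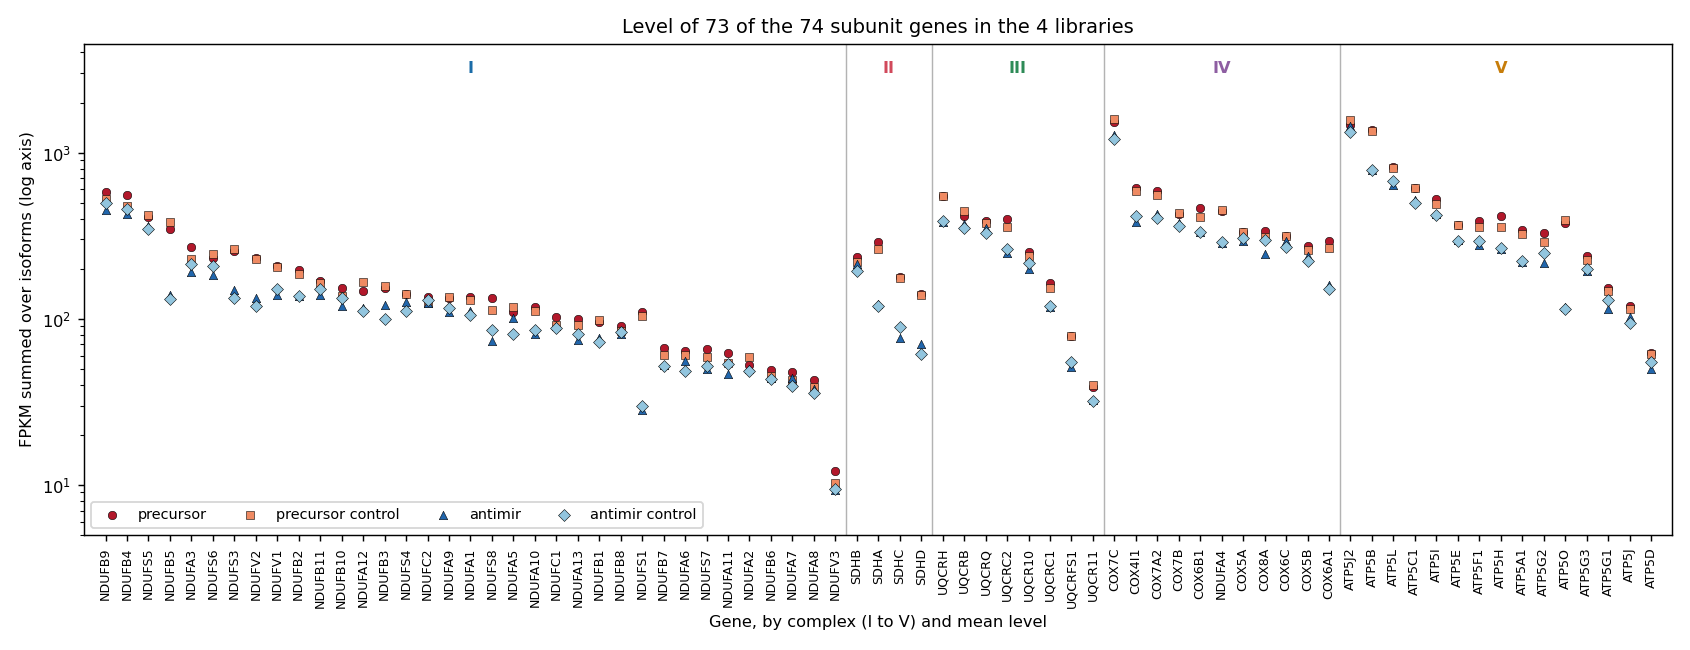
FPKM of 73 of the 74 genes in the 4 libraries (log axis), by complex and by mean level; circles are precursor, squares precursor control, triangles antimir and diamonds antimir control. The order runs from COX7C and ATP5J2 above 1200 FPKM to NDUFV3 near 10, and NDUFS1, ATP5O and NDUFB5 stand apart between the tables.

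The first comparison asks whether raising miR-23b moved the subunit genes. For each gene the difference was log2(FPKM + 1) in the precursor library minus that in its control, centred on the median of all genes (0.022). No member was past 1.5-fold in either direction, against 6.68% of all 16982 genes and 0.457% of the 7223 protein-coding genes within the members' FPKM range. Of the 74, 47 lay above 0 and 27 below, where 52.1% of the protein-coding genes in that range lay above 0. The median was 0.045, against 0.0075 in those genes, and the members ran from -0.22 (NDUFA12) to 0.22 (NDUFS8). Over the alternatives tried, from 42 (most abundant isoform only, median 0.018) to 55 (no centring, median 0.067) lay above 0.

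The second comparison asks the same of the antimir library. Again no member was past 1.5-fold, against 7.97% of all 14190 genes and 1.66% of the 7037 protein-coding genes in the members' FPKM range. There 45 members lay above 0 and 29 below, where 48.9% of those protein-coding genes lay above. The median was 0.036, against -0.0045, with a range from -0.23 (COX8A) to 0.35 (NDUFA5). The median removed by centring was -0.038, and over the alternatives from 37 to 45 lay above 0. Without centring the members' median was -0.0020, and with no filter on low values 0.0084. The members had an interquartile range of 0.13 in the precursor comparison and 0.17 in the antimir comparison. In the protein-coding genes of their range it was 0.19 and 0.22. That range starts at the lowest member, NDUFV3, so its genes were not matched to the members in level. The median member stood above 95.1% of the genes past the filter in the precursor library and above 94.5% in the antimir library. The part of level in the narrower spread was not tested. Past 0.2 in either direction lay 4 members in the first comparison and 7 in the second.

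**Figure D2:**
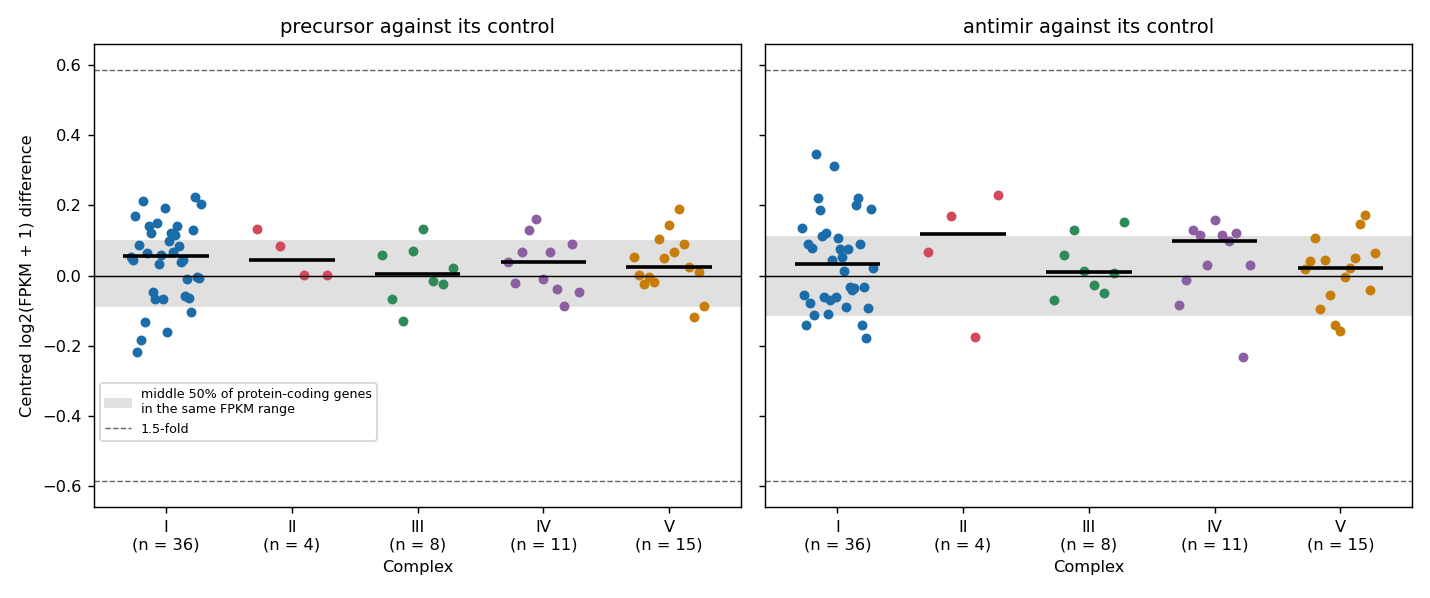
Centred log2(FPKM + 1) difference of each gene, by complex, in the precursor comparison (left) and the antimir comparison (right); bars are medians, the grey band holds the middle 50% of protein-coding genes in the same FPKM range, and dashed lines mark 1.5-fold. All points lie inside the dashed lines, between -0.22 and 0.22 on the left and between -0.23 and 0.35 on the right.

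Complex I takes electrons from NADH, and 7 of its nuclear subunits form the catalytic core that carries the flavin and the iron-sulfur clusters. The median difference of its 36 genes was 0.055 in the precursor comparison (23 above 0) and 0.033 in the antimir comparison (20 above 0, and -0.00525 for the median without centring). In the core, 4 of 7 lay above 0 with precursor and 2 of 7 with antimir. Among the 29 accessory subunits, which surround the core, the counts were 19 and 18.

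NDUFS8, a core subunit that holds iron-sulfur clusters, had the highest precursor difference and the lowest antimir difference of complex I. It was at 134 FPKM with precursor against 113 in its control (0.22), and at 73.6 with antimir against 85.8 (-0.18). The table places its locus in hg19 at chromosome 11, 67798084 to 67804111. Its most abundant isoform alone, ENST00000313468.5, was at 42.9 against 47.1 with precursor, so the sign of the precursor difference turned (-0.16). NDUFS7, the core subunit next to the ubiquinone site, was at 65.6 against 59 (0.13) and at 49.5 against 52 (-0.034).

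NDUFV1, which binds NADH and the flavin, was at 207 FPKM with precursor against 204 (-0.0026), and at 138 with antimir against 151 (-0.091). NDUFV2, its iron-sulfur partner, was at 231 against 229 (-0.0073), and at 133 against 119 (0.19). NDUFS1, the largest core subunit, was at 109 against 104 (0.040), and at 28.4 against 30 (-0.042). The antimir value of NDUFS1 is that of 1 isoform, since its 9 other isoforms there had the status failed and were left out. With the failed isoforms kept, its antimir difference was -0.17. NDUFS3, a core subunit of the arm that reaches into the matrix, was at 255 against 261 (-0.057), and at 149 against 133 (0.20). The core therefore held differences on both sides of 0 in each comparison.

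Accessory subunits of complex I held the lowest precursor difference and the highest antimir difference of all members. NDUFA12, a subunit needed late in assembly, was at 146 FPKM with precursor against 167 (-0.22), and at 116 with antimir against 111 (0.090). NDUFA5 was at 109 against 118 (-0.13), and at 101 against 80.9 (0.35). NDUFA12 and NDUFA5 thus lay below 0 with precursor and above 0 with antimir, and both kept those signs in every alternative tried. The most abundant of the 11 NDUFA5 isoforms, ENST00000459880.1, is annotated as a retained intron, and it was at 17.7 against 27.2 and at 40.3 against 24.9. With protein-coding transcripts only, the NDUFA5 differences were -0.21 and 0.27. NDUFB9, the most abundant complex I gene, was at 579 against 526 (0.12), and at 454 against 496 (-0.091).

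Complex II, succinate dehydrogenase, belongs to both the citric acid cycle and the respiratory chain. All 4 of its genes lay above 0 in the precursor comparison, with a median of 0.044, and 3 of 4 in the antimir comparison, with a median of 0.12. Neither direction held under every setting: with the most abundant isoform only the precursor median was -0.054, and with protein-coding transcripts only the medians were -0.0055 and -0.076. SDHA, the flavoprotein that oxidises succinate, was at 291 FPKM with precursor against 261 (0.13), and at 122 with antimir against 120 (0.067). SDHB, the iron-sulfur subunit, was at 236 against 219 (0.084), and at 214 against 195 (0.17). The catalytic subunits thus lay above 0 in both comparisons, but with protein-coding transcripts only both lay below 0 with antimir (-0.084 for SDHA and -0.067 for SDHB).

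The membrane anchors differed from each other in the antimir comparison. SDHC was at 178 FPKM with precursor against 175 (0.0025), and at 76.7 with antimir against 89.1 (-0.18). SDHD was at 140 against 138 (0.0032), and at 70 against 61.2 (0.23). Both were close to 0 with precursor, and lay on opposite sides of 0 with antimir.

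Complex III moves electrons from ubiquinol to cytochrome c. Its 8 genes lay evenly about 0 with precursor (4 above, median 0.0036) and 5 lay above with antimir (median 0.011). UQCRC1 and UQCRC2, the core proteins, were both above 0 with precursor. UQCRC2 was at 398 FPKM with precursor against 358 (0.13), and at 250 with antimir against 261 (-0.026). With protein-coding transcripts only, UQCRC2 was at -0.20 with precursor, so the sign of that difference turned. UQCRFS1, the Rieske iron-sulfur protein that carries the first electron step, was at 78.6 against 78.2 (-0.015), and at 51.5 against 54.8 (-0.050).

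Among the small subunits of complex III, UQCRB had the lowest precursor difference, at 415 FPKM against 447 (-0.13), and was at 374 against 351 with antimir (0.13). UQCRQ had the highest antimir difference, at 353 against 326 (0.15), and was at 388 against 376 with precursor (0.022). UQCR10 had the lowest, at 199 against 215 (-0.070), and was at 253 against 239 with precursor (0.060). UQCRH, the hinge protein and the most abundant gene of the complex, was at 547 against 548 and at 380 against 387. UQCR11, the least abundant, was at 38.8 against 40.1 and at 32.2 against 31.8. The small subunits were thus spread on both sides of 0 in each comparison.

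Complex IV, cytochrome c oxidase, had a median of 0.040 with precursor (6 of 11 above 0) and of 0.10 with antimir (8 of 11). COX4I1, a subunit known for regulation of the enzyme by ATP, was at 610 FPKM with precursor against 584 (0.040), and at 383 with antimir against 416 (-0.084). COX6B1, which faces cytochrome c, had the highest precursor difference, at 466 against 410 (0.16), and was at 331 against 332 with antimir (0.031). COX7C had the lowest precursor difference (-0.085) and was at 0.12 with antimir.

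COX8A, the smallest subunit, had the lowest antimir difference of all members, at 245 FPKM with antimir against 296 (-0.23), and was at 338 against 312 with precursor (0.091). It has 1 listed isoform, so no choice of isoform changes these values. COX6C had the highest antimir difference of the complex, at 292 against 269 (0.16), and was at 316 against 313 with precursor (-0.0090). COX6A1, the least abundant gene of the complex by its mean over the 4 libraries, was at 295 against 265 (0.13) and at 160 against 151 (0.12). NDUFA4 was at 443 against 451 (-0.048) and at 287 against 289 (0.031).

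Complex V joins the F1 part, which makes ATP, to the Fo part, which carries the protons. Its 15 genes had a median of 0.025 with precursor (10 above 0) and of 0.021 with antimir (9 above 0). The F1 subunits were close to 0: ATP5A1, the alpha subunit, was at 342 FPKM with precursor against 325 (0.052), and at 218 with antimir against 221 (0.019). ATP5B, the catalytic beta subunit, was at 1360 against 1340 (0.0015), and at 786 against 784 (0.041). ATP5C1, the rotating gamma subunit, was at 610 against 611 (-0.025), and at 520 against 496 (0.11). ATP5D and ATP5E, which join the rotor, were at -0.0040 and -0.018 with precursor and at -0.095 and 0.045 with antimir. ATP5D was the least abundant gene of the complex, at 62.1 against 61.3 and at 50 against 54.9, and ATP5E was at 365 against 364 and at 296 against 294.

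ATP5G1, ATP5G2 and ATP5G3 encode the same c subunit, whose copies form the ring that turns as protons pass. All 3 lay above 0 with precursor (median 0.068) and below 0 with antimir (median -0.14). ATP5G2 was at 326 FPKM with precursor against 290 (0.14), and at 217 with antimir against 249 (-0.16). ATP5G1 was at 154 against 147 (0.052), and at 115 against 130 (-0.14). ATP5G3 was at 240 against 225 (0.068), and at 194 against 200 (-0.0049), and its antimir sign turned with the most abundant isoform only (0.014) and with protein-coding transcripts only (0.020). The 3 genes make the same mature protein, so only their transcripts can be told apart.

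In the stalk and membrane part, ATP5H, a subunit of the peripheral stalk, had the highest precursor difference of complex V, at 415 FPKM against 358 (0.19), and was at 264 against 267 with antimir (0.021). ATP5J2 had the lowest precursor difference (-0.12) and the highest antimir difference (0.17) of the complex. ATP5J, a coupling subunit of the stalk, was at 119 against 115 (0.025), and at 102 against 94.6 (0.15).

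The 2 comparisons share no library, so each gene has 2 separate values. Of the 74 members, 24 lay above 0 in both comparisons (32.4%), 23 above with precursor and below with antimir (31.1%), 21 the reverse (28.4%) and 6 below in both (8.11%). Among the 7106 protein-coding genes of the same FPKM range measured in both, these shares were 20.7%, 31.3%, 28% and 20%. The 6 below 0 in both were NDUFA9, NDUFS6, NDUFV1, UQCRFS1, COX5A and ATP5D. Of these, NDUFS6, an accessory subunit of complex I, had the largest differences: 231 FPKM with precursor against 245 (-0.11), and 184 with antimir against 208 (-0.14). Across the 74 genes the 2 differences had a Pearson r of -0.39 and a Spearman rho of -0.36, and across the protein-coding genes r was -0.18 and rho -0.25. Genes are not replicates, and all points share the same 4 libraries.

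**Figure D3:**
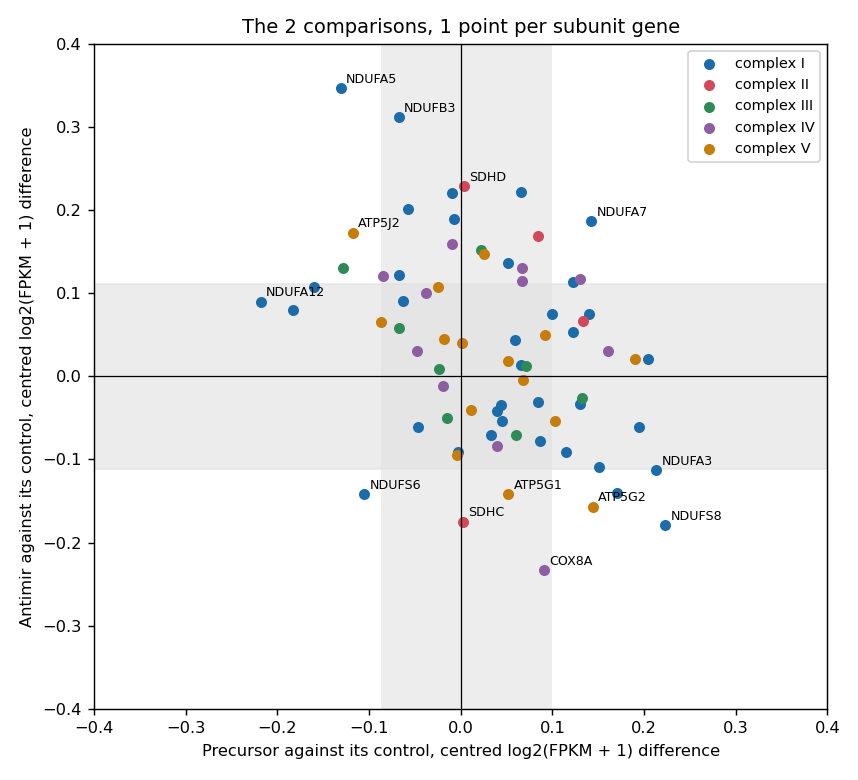
Each subunit gene by its centred log2(FPKM + 1) difference with precursor (horizontal) and with antimir (vertical), coloured by complex; grey bands hold the middle 50% of protein-coding genes in the same FPKM range. NDUFA5 and NDUFB3 lie at the upper left and NDUFS8 and COX8A at the lower right, and 6 genes lie in the lower left quadrant.

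Base composition moved with both differences. Across the 73 members with such a transcript, the precursor difference had an r of 0.42 (rho 0.45) with the GC content of its most abundant coding transcript in that table, and the antimir difference an r of -0.55 (rho -0.51). In the protein-coding genes of the same range the values were 0.20 (0.24) and -0.17 (-0.23). Of the members with a GC content of at least 50%, 32 of 40 (80%) lay above 0 with precursor, and of those under 50%, 15 of 33 (45.5%). In the protein-coding genes of the same range these shares were 60.8% and 44%. With antimir the counts were 20 of 39 (51.3%) and 24 of 34 (70.6%), against 39.4% and 56.5% of those protein-coding genes. The split thus ran the same way in the members and in those genes. NDUFA5, the highest with antimir, had 31.6% GC, and COX8A and NDUFS8, the lowest, had 58.6% and 63.3%. For the length of that transcript r was 0.055 and -0.025. Protein-coding transcripts held under 50% of a gene's FPKM in 26 members in the precursor control library and in 22 in the antimir control library. In those, the GC content is that of a minor part of the FPKM summed. The part of base composition in the differences was not tested.

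Subunits encoded by mitochondrial DNA had higher medians than the nuclear ones of each shared complex with precursor and lower medians with antimir. With precursor, all 7 measured in complex I lay above 0 (median 0.34, lowest 0.22), as did the 3 of complex IV (0.36) and MT-CYB of complex III (0.29) and MT-ATP6 of complex V (0.33), where the nuclear medians were 0.055, 0.040, 0.0036 and 0.025. With antimir all 12 lay below 0, with medians of -0.31 in complex I and -0.25 in complex IV, and MT-CYB at -0.37 and MT-ATP6 at -0.33. The values overlapped in places: NDUFS8 (0.22) lay just above MT-ND2 (0.22), the lowest mitochondrial value with precursor. With antimir, MT-ND3 (-0.054) and MT-ND2 (-0.17) lay inside the range of the nuclear complex I genes, as MT-CO1 (-0.19) did in complex IV. The nuclear medians of the complexes lay above 0 with antimir, at 0.033, 0.10, 0.011 and 0.021. The nuclear and mitochondrial medians of a complex thus lay on the same side of 0 with precursor and on opposite sides with antimir. Single nuclear genes lay on both sides, with 27 of the 74 below 0 with precursor and 29 with antimir. Those sides depend on the setting where the nuclear medians were small. The complex III precursor median lay below 0 with protein-coding transcripts only, at a mean FPKM of at least 5 and when 1 isoform stood for the gene, and without centring the antimir medians of complexes I, III and V lay below 0.

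**Figure D4:**
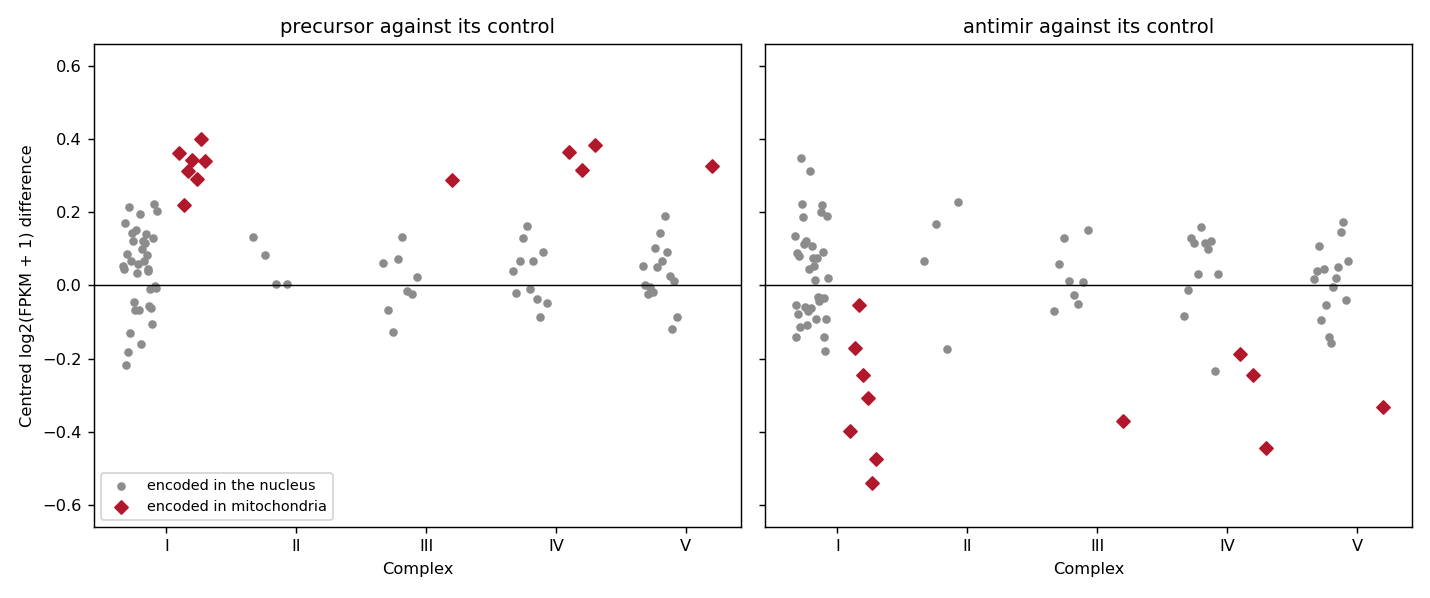
Centred log2(FPKM + 1) differences of nuclear (grey circles) and mitochondrially encoded (red diamonds) subunits, by complex, in the precursor comparison (left) and the antimir comparison (right). The 12 diamonds all lie above 0 on the left and below 0 on the right, while the circles lie on both sides.

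Beneath the gene sums lay 580 isoforms, from 1 in 6 genes (NDUFA1, NDUFA7, NDUFB7, UQCR11, UQCRFS1 and COX8A) to 29 in NDUFV1. The authors' deposited table for precursor called 33 of them higher and 33 lower. By gene, 26 of the 74 members had an isoform called higher there, where 22.8% of all genes did. An isoform was called lower in 21 of the 74, where 21.9% of all genes had one. In 11 members the authors' deposited table had calls both ways, among them SDHA, NDUFA5, ATP5G2, UQCRC2, SDHC, NDUFB9, ATP5A1, ATP5J, ATP5G1 and NDUFB8. In 38 members it had none. The shares of all genes with calls both ways or with none were not computed. Members had a median of 7 isoforms, and all genes were not matched to them in isoform number or level. For antimir the authors' deposited table called no isoform of any member, with a smallest q-value of 0.737, where 1.49% of all genes had a call. These calls compare 2 libraries and not the conditions.

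SDHA shows how isoforms of a gene parted. The authors' deposited table called its most abundant coding isoform ENST00000264932.6 higher with precursor, at 32.5 FPKM against 21.9 (q-value 1.89e-05), and 5 others lower, of which ENST00000510361.1 was at 0.619 against 2.45 (q-value 1.20e-08). With antimir the first was at 49.7 against 55.8. In UQCRC2 the authors' deposited table called the retained-intron form ENST00000567597.1 higher, at 110 against 67.4 (q-value 0.000352), and ENST00000561798.1 lower, at 24.6 against 33 (q-value 0.0255). The main coding isoform of UQCRC2, ENST00000561553.1, was at 57.5 against 67.3 and had no call. In ATP5J the authors' deposited table called 2 coding isoforms lower and 2 isoforms higher, of which ENST00000457143.2 was at 3.4 against 0.184 (q-value 0.015). That ATP5J isoform was at 5.5 in the antimir library and listed at 0 in its control.

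In NDUFB8, an accessory subunit with calls both ways, the sum was at 89.9 FPKM against 84.5 with precursor and at 81.3 against 82.7 with antimir. For NDUFB9 the authors' deposited table called ENST00000517367.1 higher, at 106 against 80.6 (q-value 0.00974), and a retained-intron form lower. NDUFS3 had calls in 1 direction, and the authors' deposited table gave its isoform ENST00000263774.4 the smallest q-value among members, at 2.29 against 8.06 (q-value 2.64e-10). NDUFS8 had 4 isoforms called higher in the authors' deposited table and none lower, led by ENST00000528492.1 at 33.7 against 16.6 (q-value 0.000421). That isoform was listed at 0 in both libraries of the antimir table.

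**Figure D5:**
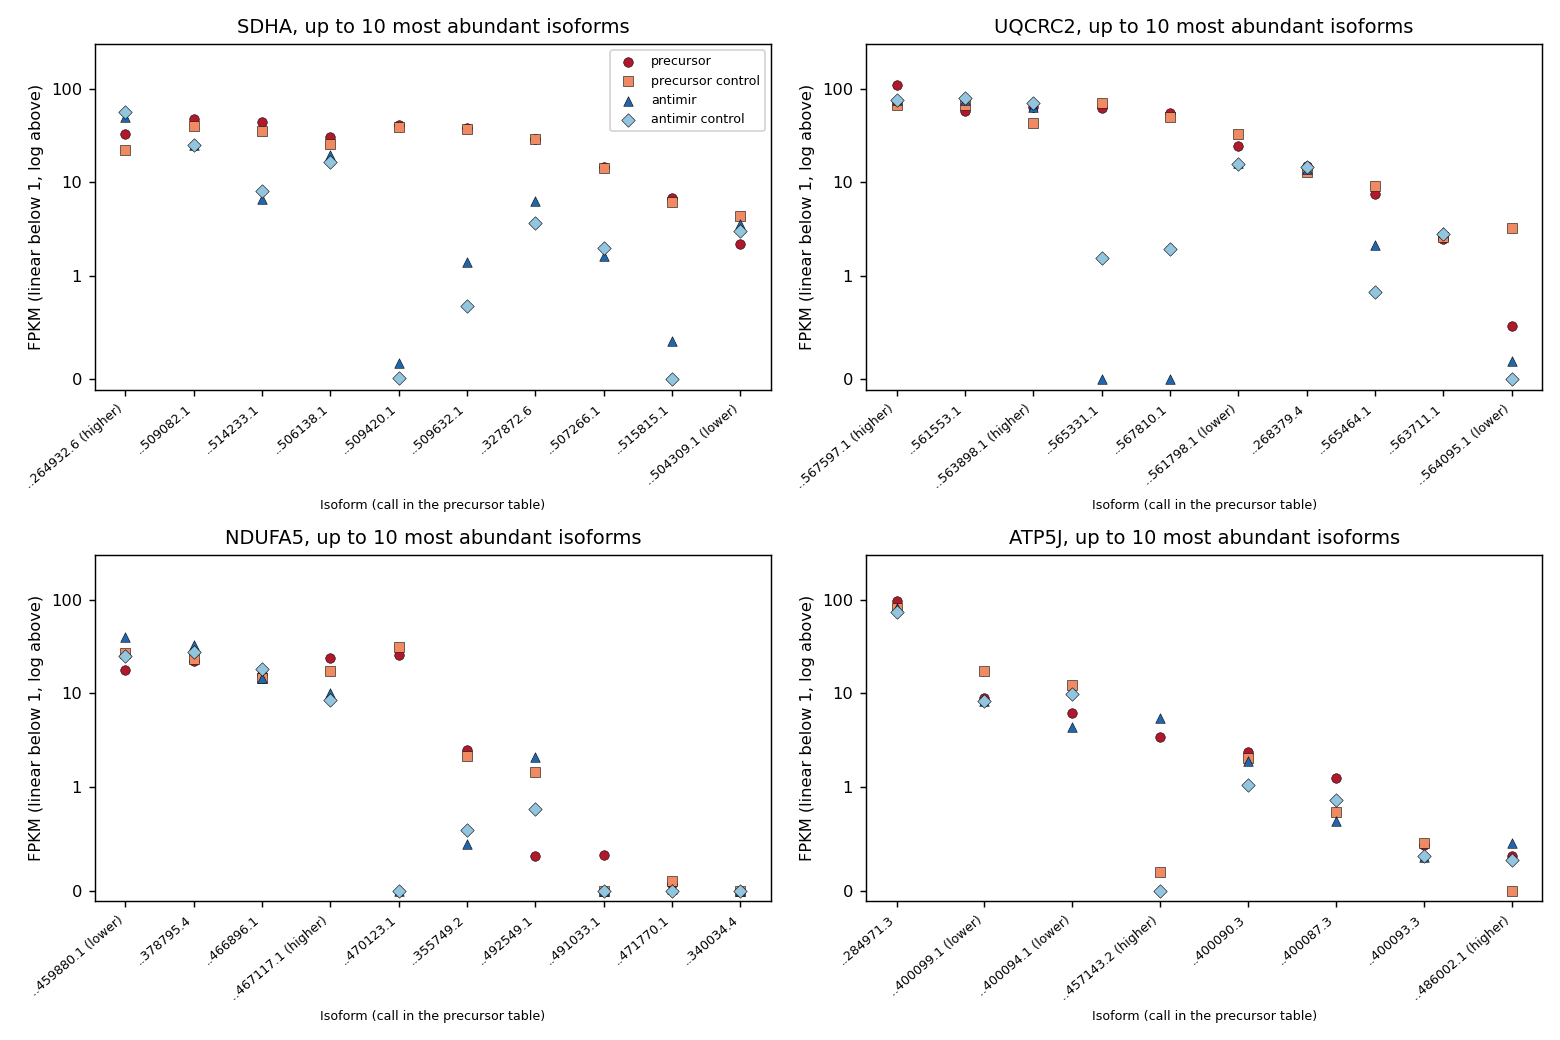
FPKM of up to 10 most abundant isoforms of SDHA, UQCRC2, NDUFA5 and ATP5J in the 4 libraries (linear below 1, log above), with the call in the authors' deposited precursor table in brackets. Several SDHA, UQCRC2 and NDUFA5 isoforms above 20 FPKM in the precursor and precursor control libraries lie near 0 in the antimir and antimir control libraries.

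The 2 tables shared FPKM out among isoforms in different ways, beside the treatments. At 10 FPKM or more in both precursor-table libraries and under 1 in both antimir-table libraries were 22 isoforms of 17 members, and 4 isoforms of 3 members were the reverse. ENST00000484627.1 of ATP5O was at 227 and 255 FPKM with precursor and in its control, and was listed at 0 for antimir and antimir control. Its gene was at 376 against 393 with precursor and at 117 against 115 with antimir, a ratio of 3.43 between the control libraries. NDUFS1 had a ratio of 3.47, which rests on the 1 isoform that had not failed in the antimir table and was 1.63 with the failed ones kept. NDUFB5, at 346 and 381 against 138 and 132, had one of 2.89. Over all members the median ratio was 1.22, close to the 1.21 of all genes, and 8 members lay past 1.5-fold of that median, or 10.8%, against 14.6% of all genes. The kind of control, the library and the authors' separate normalisation cannot be told apart here.

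In 21 members the most abundant isoform was not annotated as protein-coding in GENCODE 29. These include isoforms that are not in GENCODE 29 and whose type is unknown here, such as those of NDUFB11 and UQCR11. Protein-coding transcripts held 66.2% of the members' FPKM with precursor against 65.7%, and 70.8% with antimir against 71.4%. Isoforms not in GENCODE 29 held 5.55% with precursor against 5.42%, and 5.55% with antimir against 5.57%. Sequence copies add to the uncertainty, since 30 members have 80 named pseudogenes in the tables, of which 29 passed the filter for the precursor comparison and 17 for the antimir one. COX7CP1 was at 452 FPKM with precursor against 450, and at 2.33 with antimir against 2.82. How the authors' counting split reads between COX7C and this copy is not given in the sources used here. Entries for the whole locus of a gene were low for members, with medians of 0.246 FPKM with precursor against 0.31 in its control. Of the 74, 67 were lower with precursor, beside 85.4% of the 9973 genes with such an entry at 0.1 FPKM or more. With antimir 51 of 74 were higher and 21 lower, beside 41.6% lower of 9514 genes past the same bound. That bound was not applied to the members, some of which were at 0.

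The rule used no sequence, so the mRNAs were searched for sites of the microRNA itself. The mature miR-23b-3p (RefSeq, GRCh38.p14, chromosome 9, 95085265 to 95085287, plus strand) is shown 5′ to 3′ with its seed, bases 2 to 8, in capitals, since this stretch defines the sites counted.
miR-23b-3p: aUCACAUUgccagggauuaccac
The matching 7-base site is AATGTGA. It occurred in the longest annotated 3′ UTR (GENCODE 29) of 17 of 74 members, or 23.0%, against 19.6% of 19484 genes. The members' UTRs were shorter, with a median longest UTR of 566 bases against 1340.

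A site was found in few of the abundant transcripts. Only transcripts with a 3′ UTR in GENCODE 29 could be searched, and 43 of the 580 isoforms are not in it. These isoforms, among them the most abundant of UQCR11, UQCR10 and NDUFB11, were not searched and were counted as without a site. In 19 members any listed transcript had a site, but its transcripts held at least 50% of the gene's FPKM in 4 members in the precursor control library and in 6 in the antimir control library. In UQCRFS1 and NDUFA7 they held all of it, in NDUFA2 84 to 99.7%, in NDUFA3 46.8 to 63.4%, in SDHD 26.5 to 94.3% and in ATP5A1 32.8 to 55.2%. Sites of these 6 genes in an abundant transcript are shown with their neighbouring bases, site in capitals.
UQCRFS1, first site: ttgcaaacattAATGTGAaataaattgaat
UQCRFS1, later site: ggcagagttggAATGTGAaacattgagttg
NDUFA2: ggacttagtatAATGTGAaaaaaatgtgtt
NDUFA7: cctccagggagAATGTGAcctaatttatga
SDHD: tgggaatctctAATGTGAaaatgtattcta
NDUFA3: ctcccaataaaAATGTGAaaaccaacccc
ATP5A1, first site: tgatatttaaaAATGTGAtttttaaatatc
ATP5A1, later site: ttgacctttgaAATGTGAagttttatggat
In the stretches shown, the sites of UQCRFS1, NDUFA2, SDHD and NDUFA3 and the later site of ATP5A1 are followed by an A, and those of NDUFA7 and the first of ATP5A1 are not.

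The genes with a site did not share a direction. UQCRFS1, with its sites in every transcript, was at -0.015 with precursor and -0.050 with antimir, as given above. NDUFA2, an accessory subunit of complex I, was at 52.7 FPKM with precursor against 59.1 (-0.18), and at 49.7 with antimir against 48.2 (0.080). NDUFA7, another accessory subunit, was at 48.1 against 42.8 (0.14), and at 43.8 against 39.4 (0.19). NDUFA3, also an accessory subunit, was at 270 with precursor against 229 (0.21), and at 192 with antimir against 213 (-0.11). These 4 genes thus lay on different sides of 0 in each comparison. Over the 19 genes with a site in a listed transcript, the median difference was 0.0032 with precursor (8 below 0) and 0.044 with antimir (8 below 0). Over the 55 in which none was found, it was 0.052 (19 below 0) and 0.031 (21 below 0), and some of their isoforms were not searched. A matching site describes the sequence and does not show binding.

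Promoter windows were available for 61 of the 74 members by symbol (RefSeq, GRCh38.p14), each running from 250 bases before to 50 after the start of the gene. The NRF1 motif GCGCATGC, read on both strands, where its reverse complement is GCATGCGC, lay in 13 of them (21.3%), against 3.27% of 27305 promoters. The ETS motif CCGGAAG, with reverse complement CTTCCGG, lay in 19 (31.1%), against 10.7%. Copies of the NRF1 motif on opposite strands can overlap, as they do in SDHD, and neither motif overlaps the other in the windows shown. Both occurred in 6 members: SDHB, SDHD, COX5B, COX6A1, ATP5I and ATP5J. Most windows of the members thus held no NRF1 motif, and most held no ETS motif. The 27305 promoters were not matched to the members in level. Windows of 3 of the 6, of complexes II, IV and V, are shown with both motifs in capitals, which the rule did not use.
SDHB (chr1:17053983-17054282, minus strand): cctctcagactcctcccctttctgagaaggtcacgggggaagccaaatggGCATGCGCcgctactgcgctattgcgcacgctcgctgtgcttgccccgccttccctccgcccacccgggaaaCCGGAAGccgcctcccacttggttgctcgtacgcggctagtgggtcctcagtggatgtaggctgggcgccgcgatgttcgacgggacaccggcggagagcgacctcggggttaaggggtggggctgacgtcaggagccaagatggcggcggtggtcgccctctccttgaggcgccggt
COX5B (chr2:97645812-97646111, plus strand): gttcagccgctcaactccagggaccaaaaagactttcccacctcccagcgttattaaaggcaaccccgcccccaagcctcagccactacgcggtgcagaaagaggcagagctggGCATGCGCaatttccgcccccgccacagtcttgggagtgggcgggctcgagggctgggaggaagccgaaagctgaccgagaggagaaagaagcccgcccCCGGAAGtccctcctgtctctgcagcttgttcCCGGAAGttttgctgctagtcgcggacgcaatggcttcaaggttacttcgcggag
ATP5J (chr21:25735005-25735304, minus strand): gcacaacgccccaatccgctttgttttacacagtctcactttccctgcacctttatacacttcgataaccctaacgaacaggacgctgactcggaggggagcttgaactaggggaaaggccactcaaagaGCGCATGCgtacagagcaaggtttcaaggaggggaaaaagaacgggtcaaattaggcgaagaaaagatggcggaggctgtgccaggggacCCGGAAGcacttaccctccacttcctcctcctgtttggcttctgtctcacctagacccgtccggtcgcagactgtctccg
By complex, the NRF1 motif lay in 5 of 31 windows of complex I, 2 of 3 of complex II, 0 of 7 of complex III, 2 of 9 of complex IV and 4 of 11 of complex V. A match is a description of letters, and a window without one says nothing about the factor.

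Members with the NRF1 motif had a median level of 217 FPKM over the 4 libraries, against 147 without, and those with the ETS motif 218 against 137. Their median differences were 0.084 with precursor and 0.11 with antimir with the NRF1 motif, and 0.049 and 0.021 without. With the ETS motif they were 0.052 and 0.054, and without 0.056 and 0.020. COX5B, with both motifs, was at 275 FPKM with precursor against 258 (0.066), and at 238 with antimir against 223 (0.13). No test was made of these medians.

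Genes that build or regulate the complexes were described from lists by complex. Of 13 assembly factors of complex I measured, 5 lay above 0 with precursor and 9 with antimir, of 4 for complex II 1 and 2, of 4 for complex III 2 and 2, of 16 for complex IV 7 and 10, and of 3 for complex V 1 and 1. Their medians with precursor lay between -0.080 and -0.0068, below those of the subunits. With antimir they were 0.11, -0.024, 0.11, 0.085 and -0.0086 for complexes I to V, against 0.033, 0.12, 0.011, 0.10 and 0.021 for the subunits. LYRM7, a chaperone that delivers UQCRFS1 to complex III, was the 1 assembly factor past 1.5-fold, at 24.4 FPKM with antimir against 14.4 (0.76), and at 27.6 against 24.6 with precursor (0.14). With protein-coding transcripts only, its antimir difference was 0.23. Other ends of the lists were FOXRED1 at -0.41 with precursor (-0.0078 with protein-coding transcripts only) and CS, the citrate synthase, at -0.39 with antimir.

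Of 8 further subunits or partners that the symbol rule did not take, 3 lay above 0 with precursor and 5 with antimir. CYC1, cytochrome c1 of complex III, was the highest with precursor, at 137 FPKM against 123 (0.14), and was at 93.4 against 96.3 with antimir (-0.0064). Its precursor sign turned with the most abundant isoform only (-0.061) and with protein-coding transcripts only (-0.068). ATP5S, a coupling factor, was at 7.27 against 13 with antimir (-0.73), and at 0.50 when only protein-coding transcripts were used. The 14 regulators of mitochondrial biogenesis, of which 13 passed the filter, had medians of -0.051 and -0.039, with TFB1M, a mitochondrial rRNA methyltransferase, at 0.56 with precursor and -0.46 with antimir. Its most abundant isoform was at 0.092 and 0.37, and with protein-coding transcripts only it was at -0.10 and 0.39. The 14 citric acid cycle genes had medians of -0.0022 and 0.0020.

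Tissue forms of the subunits were nearly silent. COX4I2, COX6A2, COX7B2 and COX8C were listed at 0 in all 4 libraries, and COX6B2 and COX7A1 were at no more than 0.202 FPKM. NDUFA4L2, a relative of NDUFA4 known as a gene induced by low oxygen, was the exception, at 17.8 FPKM with precursor against 9.31 (0.85), and at 10.7 with antimir against 11.9 (-0.099). With its most abundant isoform only these were 1.17 and 0.13. NDUFA4 itself stood at 443 and 451 in the same precursor table.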

How the data were processed

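Per the submitters' processing notes, the tools were bcl2fastq 1.8.3, TopHat2 2.0.11, Cufflinks 2.2.0 and Cuffdiff, with hg19 as the build; their roles, order and annotation are not given in the sources used here. FPKM per isoform was deposited by the authors in 2 tables, each setting 1 treated library against 1 control, with their own p-value and q-value per isoform, per the file headers. The library whose name ends in N was taken as the control. Here FPKM was summed over the transcripts of a gene whose status was not failed (Python 3.11.15, pandas 2.3.3, numpy 2.4.6). The difference was log2(FPKM + 1) treated minus control, kept where the mean FPKM reached 1, and centred on their median; it understates the change of low genes. With 1 library per group no test was made. The calculation was checked on simulated data. Members and gene lists, the 1.5-fold bound, the 50% GC split and the promoter motifs were chosen with earlier results of these data known. Named genes were the extremes in level and difference of each complex, core and catalytic subunits, genes with opposite isoform calls, and the ends of each other list; NDUFA7, NDUFA2, NDUFA3, COX5B, NDUFS6, NDUFB5 and ATP5O were added after their values were seen. Transcript types and UTRs were matched by identifier to GENCODE 29, which has another build. Isoforms not in GENCODE 29 were left out of the protein-coding setting, whatever their type. Loci are given as in the tables, whose starts count from 0 and were raised by 1. In all, 9 alternatives of the calculation were tried, 1 of them (protein-coding transcripts only) added after seeing the data, and NDUFA4 was also counted with complex I. The values of 1 member are not reported here by name, though it is counted in every total.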

Additional observations from a re-analysis of the deposited data

How the results depend on the processing

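The medians over all members kept their sign under all 9 alternatives with precursor, and with antimir under 8 of 9, since without centring it was -0.0020, where the complex I median was -0.00525, that of complex III -0.027 and that of complex V -0.017. With the most abundant isoform only, the medians became -0.054 (complex II) and -0.0040 (complex III) with precursor, and 0.016 (complex II), -0.016 (complex III) and -0.0086 (complex V) with antimir. With protein-coding transcripts only they were -0.0055 (complex II) and -0.029 (complex III) with precursor and -0.076 (complex II) with antimir. Complex III was at -0.0018 with precursor at a mean FPKM of at least 5, and with antimir at -0.00439 with tested isoforms only and -0.016 with no filter, where complex V was at -0.0065. Members past 1.5-fold numbered 1 with precursor (most abundant isoform only, UQCRC2, and protein-coding transcripts only, NDUFC1) and, with antimir, 1 (most abundant isoform only, NDUFA5, and tested isoforms only, NDUFC1) or 2 (protein-coding transcripts only, NDUFA10 among them). For NDUFC1, protein-coding transcripts held only 2.52% of its FPKM with precursor and 0.73% in the precursor control, and its most abundant isoform is not in GENCODE 29. As a share of protein-coding FPKM, the members were at 2.14% with precursor against 2.19%, so that the order of these turned, as it did with tested isoforms only (1.06% against 1.07%), and at 2.65% with antimir against 2.45%. Counting NDUFA4 with complex I gave medians of 0.052 and 0.031 for complex I and 0.053 and 0.11 for complex IV. The causes were not tested. Of the 74 members, 50 kept their sign under every alternative with precursor and 52 with antimir. No paired analysis was possible because each group has 1 library. Without read counts or replicates, neither counting error nor the spread between cultures can be given.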
